A study of Mus musculus with 42 samples.

Results

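The 9 genes described here, Mbp, Mobp, Mog, Mag, Opalin, Cldn11, Mal, Cnp and Ugt8a, encode proteins of the myelin that oligodendrocytes wrap around axons, or an enzyme that makes a myelin lipid. They were matched by gene symbol among the 35275 genes of the deposited cerebellar RNA-seq tables. All 9 were found in both tables, and all 9 passed the filter on low counts in both. The cerebella came from male mice of the C57/BL6NTac strain (given as C57BL/6 in the sample labels). Food was unrestricted for the AL group (ad libitum), was withheld for 16 h of each day in the IF16 group, and was withheld for 24 h on alternate days in the EOD group. These regimens ran for 3 months, from 3 to 6 months of age. A second set lived through the same 3 regimens, then had 2 months of unrestricted food and was collected at 8 months of age. The labels and the plots mark these groups with a suffix R, and they are called refed AL, refed IF16 and refed EOD here, although refed AL mice were never fasted. Each of the 6 groups had 5 libraries, and the 30 libraries held 26799825 to 36167435 counts each. The labels number the libraries within a group and do not say whether each is a separate mouse, so the p-values measure only the spread between these libraries, which may be in part technical.

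Oligodendrocytes extend sheets of membrane that spiral around an axon and are then compacted, which insulates the axon and speeds conduction. Basic proteins hold the cytoplasmic faces of the sheet together, immunoglobulin-type proteins sit at its inner and outer surfaces, claudin strands seal it along its edge, and galactolipids make up a large share of its lipid. In the cerebellum most myelin lies in the central white matter and its branches into the folia, and the Purkinje cell axons that leave the cortex are myelinated. The libraries carried transcripts that define this organ: among the lists of cell type markers, Cbln1 of granule cells averaged 628 FPKM and Car8 of Purkinje cells 385 FPKM. FPKM is the count scaled by gene length and library total, as deposited. In bulk tissue a lower value can stand for fewer oligodendrocytes or for less of the RNA in each, and these cannot be told apart.

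Per unit length, levels of the 9 genes ran from among the highest of the organ to moderate. The protein of the cytoplasmic faces, Mbp (ENSMUSG00000041607), averaged 602 FPKM over the 30 libraries, which was rank 40 of 22026 protein-coding genes, and took up 0.289% of all counts. Mobp (ENSMUSG00000032517), a small basic protein of compact myelin, followed at 207 FPKM and rank 212. Cnp (ENSMUSG00000006782), the cyclic nucleotide phosphodiesterase of the channels that stay open within myelin, averaged 135 FPKM. The sheath thus gave some of the most abundant messages of the organ. Mag (ENSMUSG00000036634), the adhesion protein that faces the axon, averaged 74.4 FPKM. Cldn11 (ENSMUSG00000037625), the claudin of the myelin tight junctions, averaged 62.1 FPKM, and Mal (ENSMUSG00000027375), a proteolipid of myelin membrane rafts, 43.3 FPKM. The lower end of the order held a surface protein, a lipid enzyme and a glycoprotein. Mog (ENSMUSG00000076439), which lies on the outermost face of the sheath, averaged 25.9 FPKM. Ugt8a (ENSMUSG00000032854), the transferase that makes galactosylceramide, averaged 11.0 FPKM and rank 5987. Opalin (ENSMUSG00000050121), a sialylated membrane glycoprotein of oligodendrocytes, averaged 4.94 FPKM and rank 8879, with 141 to 516 counts per library against 79575 to 112721 for Mbp.

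This order was the same by group mean in AL, IF16, refed AL, refed IF16 and refed EOD. In EOD, Cldn11 at 72.2 ± 4.58 FPKM (SD, n = 5) stood above Mag at 64.7 ± 1.58 FPKM (SD, n = 5), and it was the higher of the pair in 5 of 5 libraries. The FPKM ranges of Mag and Cldn11 overlapped in IF16, EOD and refed IF16. Every other pair of neighbours in the order was separated without overlap in each of the 6 groups.

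The genes lie on 8 chromosomes of mm10, the build in the submitters' processing notes, and the spans given are those of the deposited tables. Mbp spans 82475146 to 82585637 on the plus strand of chromosome 18 and Mog 37010743 to 37023398 on the minus strand of chromosome 17. Mag spans 30899176 to 30914873 on the minus strand of chromosome 7, and Mobp 120149742 to 120181484 on the plus strand of chromosome 9. Cldn11 at 31149946 to 31164324 on the plus strand and Ugt8a at 125865359 to 125938550 on the minus strand share chromosome 3. Mal spans 127633226 to 127656695 on the minus strand of chromosome 2, and Opalin 41062474 to 41077113 on the minus strand of chromosome 19. Cnp spans 100574904 to 100591729 on the plus strand of chromosome 11 and overlaps Dnajc7, a chaperone gene with 2467 to 3700 counts per library. Whether reads were counted by strand is not given in the sources used here, so reads of the overlap could have been assigned to neither gene or to either. Mbp overlaps the pseudogene Rpl21-ps8, which had 0 to 10 counts.

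**Figure D1:**
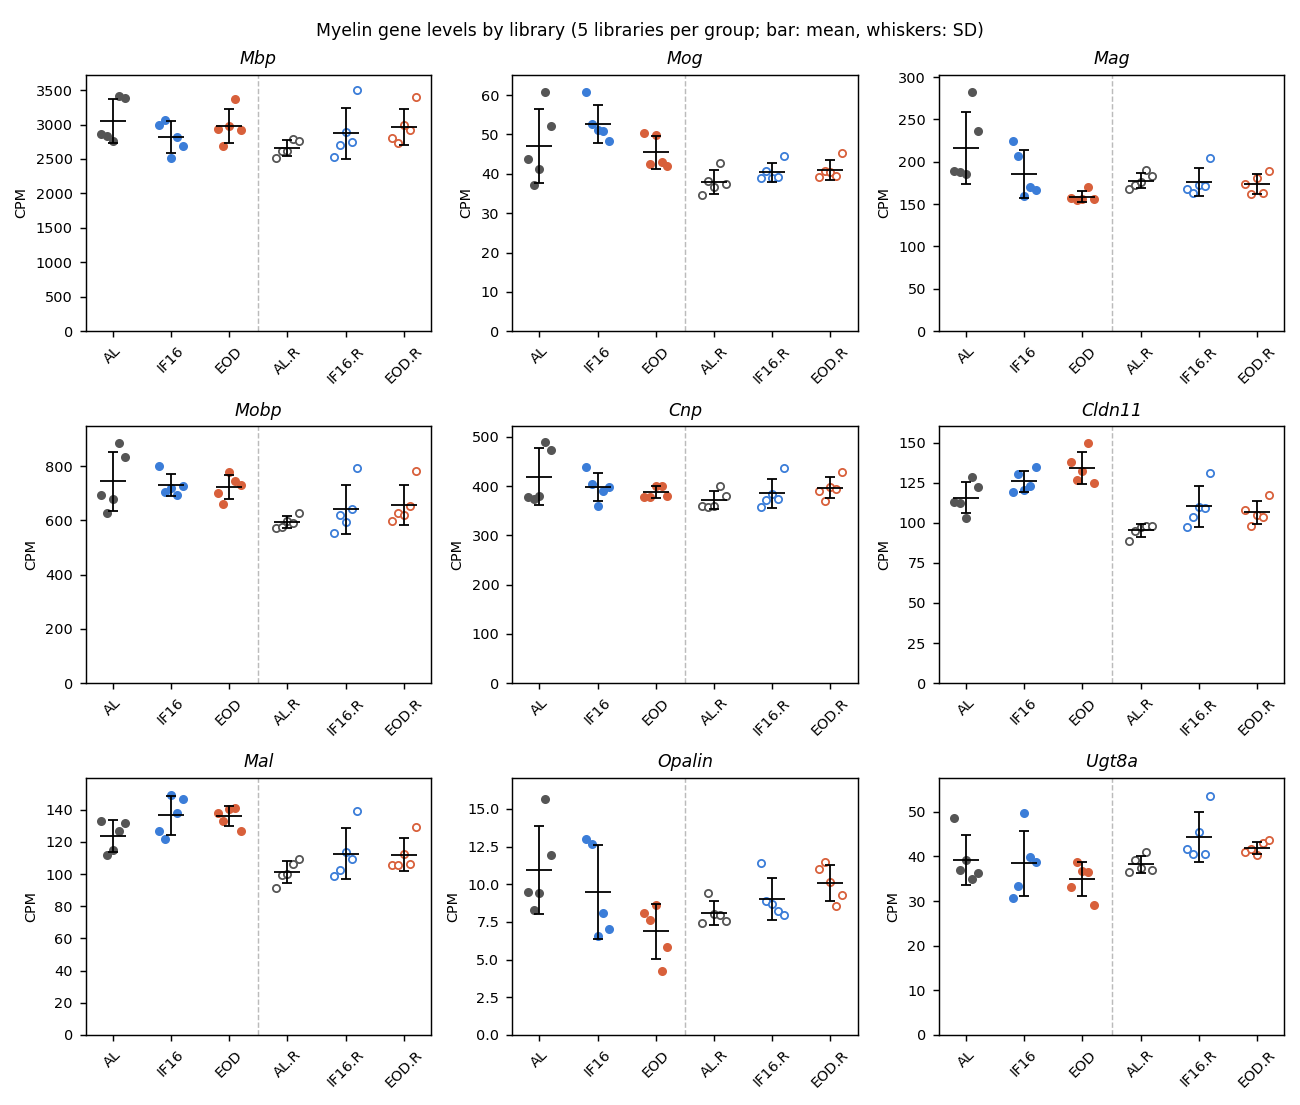
CPM, the count scaled to the size of its library (vertical axis, one scale per gene), of the 9 myelin genes in each library, with filled points for the regimen table and open points for the refed table; bars are group means, whiskers SD, and the dashed line separates the tables, which were scaled separately. AL replicates 4 and 5 stand high in several panels, Mag reaching 282 CPM in AL replicate 4, and the EOD points for Mag lie together between 154.5 and 170.5 CPM.

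Upstream sequence from RefSeq (assembly GRCm38.p6, the 250 bases before the RefSeq start) was found for 8 of the 9 genes, Mbp being the exception. The windows of Mag, Opalin, Cldn11 and Mobp are shown because Mag and Opalin had the lowest EOD values relative to AL, Cldn11 lay on the other side, and Mobp held the most motif matches of the set. Each is written 5′ to 3′ on its own strand, with capitals for a match to a searched motif. Mag is chr7:30914864-30915113 on the minus strand, Opalin chr19:41077114-41077363 on the minus strand, Cldn11 chr3:31149670-31149919 on the plus strand, and Mobp chr9:120149492-120149741 on the plus strand.
Mag: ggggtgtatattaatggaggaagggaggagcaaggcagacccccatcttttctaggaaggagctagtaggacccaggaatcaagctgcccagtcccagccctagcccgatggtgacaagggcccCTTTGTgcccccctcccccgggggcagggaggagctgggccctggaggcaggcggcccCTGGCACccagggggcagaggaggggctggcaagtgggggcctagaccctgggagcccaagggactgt
Opalin: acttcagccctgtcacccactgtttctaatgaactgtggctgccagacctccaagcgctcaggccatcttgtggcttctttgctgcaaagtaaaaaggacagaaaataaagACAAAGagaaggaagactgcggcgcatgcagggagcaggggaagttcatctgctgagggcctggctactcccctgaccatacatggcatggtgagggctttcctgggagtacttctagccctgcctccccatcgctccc
Cldn11: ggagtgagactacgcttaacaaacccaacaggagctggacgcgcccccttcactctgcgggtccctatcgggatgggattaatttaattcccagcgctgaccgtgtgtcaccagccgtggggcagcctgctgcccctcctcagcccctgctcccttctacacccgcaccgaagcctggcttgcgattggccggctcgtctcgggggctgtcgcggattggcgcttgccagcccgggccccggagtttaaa
Mobp: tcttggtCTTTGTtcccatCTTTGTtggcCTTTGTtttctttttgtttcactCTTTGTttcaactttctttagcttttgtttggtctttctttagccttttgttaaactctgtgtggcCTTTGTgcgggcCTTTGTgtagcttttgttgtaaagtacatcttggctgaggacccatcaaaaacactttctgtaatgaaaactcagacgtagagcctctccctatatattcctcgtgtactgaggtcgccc
The searched letters were ACAAAG, a core that SOX factors such as the oligodendrocyte factor SOX10 bind, CTGGCAC for the myelin factor MYRF, and the E-box forms CATATG and CAGCTG. Both strands were read, both E-boxes being their own reverse complement, and no 2 matches overlapped in the windows shown. The SOX letters occurred in 4 of the 8 windows, Mag, Opalin, Mobp and Cnp, against 16.5% of 32851 windows of the same length over all genes. Mobp held 6 of them, all read as CTTTGT. The MYRF letters occurred in 2 of 8, at −68 to −62 relative to the start in Mag and at −81 to −75 in Cnp, against 4.19% of all windows. The E-box letters occurred in 0 of 8, against 3.46% for CATATG and 13.0% for CAGCTG. The Mag window also held CTTTGT at −126 to −121, the Opalin window held ACAAAG at −139 to −134, and the Cldn11 window held none of the searched letters. A match is a description of the letters and not a site.

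The first question was whether either fasting regimen left the myelin genes at another level than AL when it ended. CPM values below are scaled within a table by the trimmed mean of M-values, and each comparison was tested with edgeR's quasi-likelihood test, adjusted by Benjamini-Hochberg over all genes tested. The gene with the clearest separation from AL was Mag, after EOD. It stood at 189, 188, 185, 282 and 237 CPM in AL, at 225, 207, 160.0, 170.2 and 167 CPM in IF16 and at 157, 154, 156, 170.5 and 156 CPM in EOD. All 5 EOD libraries lay below all 5 AL libraries, with AL replicates 4 and 5 far above the other 3, while IF16 overlapped both groups. The EOD over AL log2 fold change was −0.45 (SE 0.119, 95% interval −0.70 to −0.19), or 0.734-fold, with an edgeR p of 0.0017 and an adjusted p of 0.21. It missed the threshold of 0.05 in this test, while DESeq2 gave −0.44 with an adjusted p of 0.0443 and the edgeR fit over all 30 libraries −0.44 with 0.0234.

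Opalin varied more within groups. It stood at 9.51, 8.29, 9.39, 15.6 and 11.9 CPM in AL, at 13.0, 12.7, 6.58, 8.07 and 7.03 CPM in IF16 and at 8.07, 7.62, 8.60, 4.22 and 5.84 CPM in EOD. The lowest value of the 15 libraries was EOD replicate 4, and the EOD range reached into that of AL. The EOD over AL log2 fold change was −0.67 (SE 0.235, 95% interval −1.17 to −0.18), or 0.627-fold, with an edgeR p of 0.0109 and an adjusted p of 0.309.

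Cldn11 lay on the other side. It stood at 113, 112, 103, 129 and 122 CPM in AL, at 119.6, 131, 121, 123 and 135 CPM in IF16 and at 138, 126, 133, 149.6 and 125 CPM in EOD. EOD overlapped AL only through AL replicate 4, which was above 2 EOD libraries. The log2 fold change of EOD over AL was 0.21 (SE 0.0704, 95% interval 0.06 to 0.36), with an edgeR p of 0.0077 and an adjusted p of 0.293. Mal, the raft proteolipid, stood at 133, 112, 115, 127 and 132 CPM in AL and 138, 133, 141, 141 and 127 CPM in EOD, a log2 fold change of 0.14 with an adjusted p of 0.368.

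After EOD, the remaining genes of the set lay closer to AL than Mag, Opalin and Cldn11 did. Mbp stood at 2866, 2828, 2769, 3418 and 3388 CPM in AL, at 2996, 3073, 2510.1, 2824 and 2695 CPM in IF16 and at 2932, 2689, 2981, 3369 and 2925 CPM in EOD, and the 3 groups overlapped throughout. The log2 fold change of Mbp was −0.04 for EOD over AL and −0.12 for IF16 over AL. For Mobp, Cnp and Mog the EOD over AL values were −0.04, −0.11 and −0.05, and for Ugt8a −0.17.

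Over the whole set, edgeR called 0 of the 9 genes in EOD over AL, where it called 11 of the 16577 genes tested, or 0.0664%. DESeq2 called 1 of the 9, Mag, where it called 133 over all genes. The edgeR fit over all 30 libraries also called 1, Mag, where it called 188 over all genes. At an unadjusted p below 0.05 there were 3 of 9, Mag, Opalin and Cldn11, against 14.4% of all genes. Mag was also the 1 gene of the 9 whose EOD and AL libraries did not overlap, against 2.9% of all genes. The median of the 9 log2 fold changes was −0.05, and over all genes it was −0.02.

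Daily fasting left Mag and Opalin nearer to AL, but the difference between the regimens was itself not called for either. In IF16 over AL, edgeR called 0 of 9 at the adjusted threshold, against 0.0483% of all genes, 0 had an unadjusted p below 0.05, against 9.92% of all genes, and DESeq2 called 0. The log2 fold changes ran from −0.22 for Mag (95% interval −0.47 to 0.03) through −0.21 for Opalin (−0.70 to 0.28) to 0.14 for Mal and 0.16 for Mog. Without AL replicate 4 Mag stood at −0.11 and Opalin at −0.05, and with the slope of each library's log2 CPM on log2 gene length (its length gradient) as a covariate they stood at −0.13 and −0.05. The smallest adjusted p was 0.522, for Mal. The median was −0.03 for the 9 genes and −0.01 for all genes. EOD and IF16 were also set against each other. There edgeR called 0 of 9 and 0% of all genes, 0 of 9 had an unadjusted p below 0.05, against 3.62% of all genes, and DESeq2 called 0 of 9. The Opalin interval of EOD over IF16 was −0.96 to 0.03 around −0.47, and for Mag the estimate was −0.23. With the gradient as a covariate these were −0.25 and −0.12, and without the 4 libraries of large gradient −0.19 and −0.18. The EOD and IF16 comparisons share the AL libraries.

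**Figure D2:**
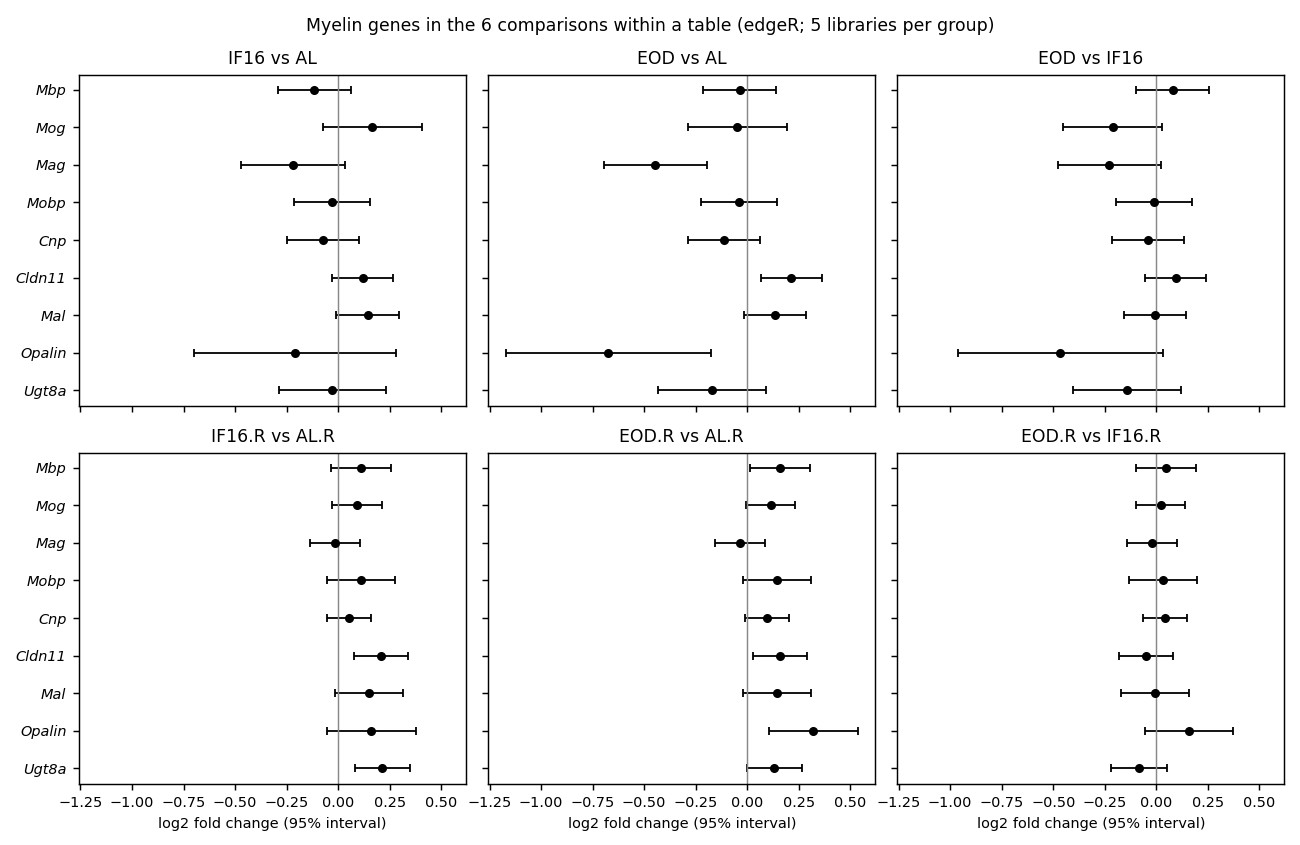
Log2 fold changes of the 9 myelin genes (horizontal axis) with 95% intervals in the 6 comparisons within a table, from edgeR's quasi-likelihood fit of 5 libraries per group. For EOD over AL the intervals of Mag (−0.70 to −0.19), Opalin (−1.17 to −0.18) and Cldn11 (0.06 to 0.36) exclude 0, and 0 of the 9 genes pass the adjusted threshold in any of the 6.

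Measures of the libraries moved with the Mag and Opalin values. The length gradient of a library is the slope of its log2 CPM, centred on each gene's mean in the table, against log2 gene length, so a negative value means that short genes read relatively high. It was −0.158 in AL replicate 4, −0.106 in AL replicate 5, −0.114 in IF16 replicate 1 and 0.139 in EOD replicate 4, and within 0.064 of 0 in the other libraries of that table. After removal of group means, it correlated over these 15 libraries with Opalin at r = −0.82, Cnp at −0.77, Mag at −0.76, Mog at −0.74, Mobp at −0.70 and Mbp at −0.50. Cldn11 stood at −0.09, Mal at 0.28 and Ugt8a at 0.74. Cnp, Mog and Mobp had EOD over AL log2 fold changes of −0.11, −0.05 and −0.04. All of these values lay above 0 in the fit with the gradient as a covariate. The correlations are descriptions over the libraries of 1 table, and the cause of the EOD values was not tested. With the gradient as a covariate the EOD over AL log2 fold change was −0.26 for Mag (adjusted p = 0.414), −0.30 for Opalin (0.628) and 0.22 for Cldn11 (0.383). Without the 4 libraries beyond 0.1 it was −0.27 for Mag (adjusted p = 0.434), −0.27 for Opalin (0.825) and 0.25 for Cldn11 (0.405). Over all alternatives other than leaving out 1 library, the edgeR or DESeq2 adjusted p ran from 0.0234 to 0.434 for Mag, 0.0682 to 0.825 for Opalin and 0.0872 to 0.417 for Cldn11.

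AL replicate 4 also stood apart in a list of brainstem and hindbrain markers. It was the highest AL library for 8 of the 8 markers tested and for 7 of the 9 myelin genes, against 31.6% of all genes. The summed level of the 14 markers was 0.636 to 14.5 FPKM in AL and 1.46 to 8.85 FPKM in EOD, with 5 of them, among these Hoxb2 and Hoxa3, at 10 counts or fewer in every library. Without AL replicate 4 the EOD over AL log2 fold change was −0.33 for Mag and −0.51 for Opalin. The summed level of choroid plexus markers was 24.3 to 3337 FPKM in AL and 558 to 2264 FPKM in EOD. With choroid plexus level as a covariate the EOD over AL values were −0.47 for Mag and −0.75 for Opalin. After removal of group means, the brainstem level correlated over the 15 libraries with the mean of the 9 genes at r = 0.53, with Mobp at 0.62, Mag at 0.49 and Opalin at 0.17, and its part in the EOD values was not tested. Markers of Schwann cells, which myelinate peripheral nerve, summed to 0.474 to 1.46 FPKM over all groups, and Pmp2 and Egr2 had 10 counts or fewer throughout.

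**Figure D3:**
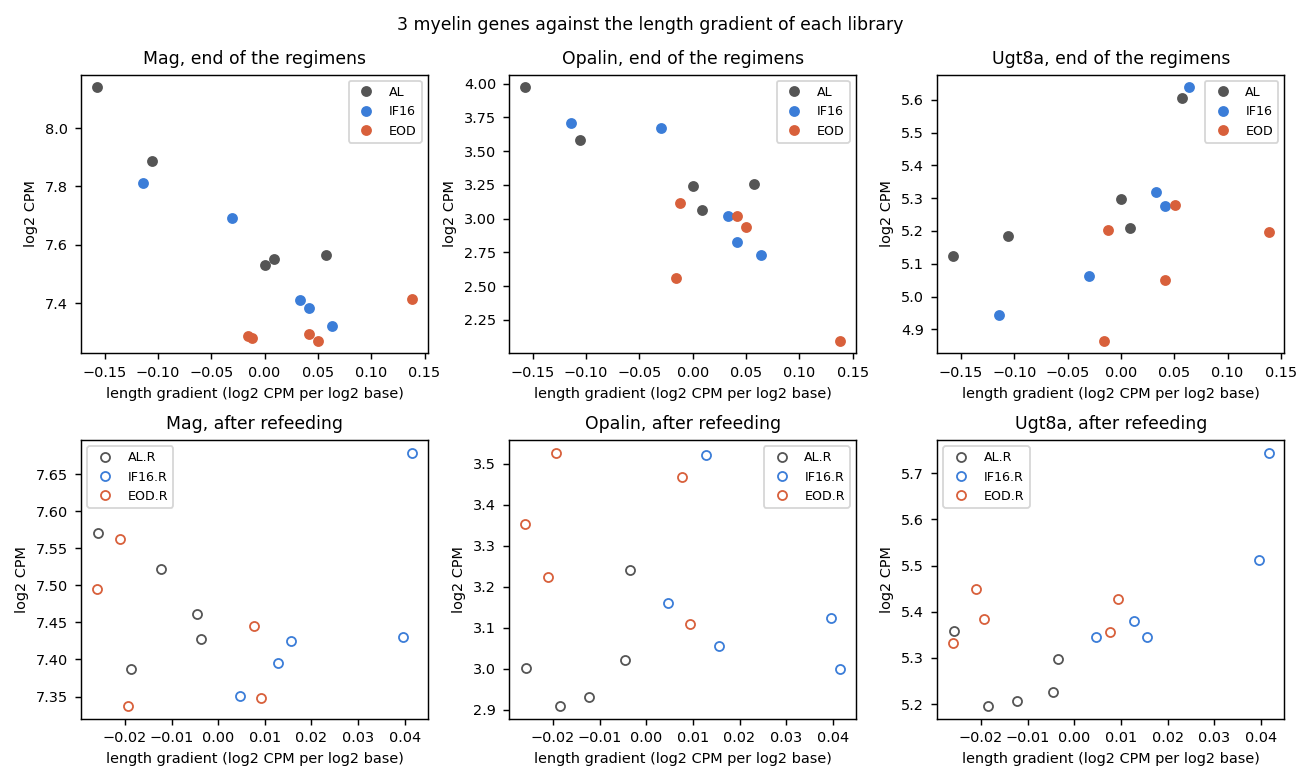
Log2 CPM of Mag, Opalin and Ugt8a (vertical axes) against the length gradient of each library (horizontal axis, log2 CPM per doubling of gene length), by group, for the regimen table and the refed table. Mag and Opalin fall and Ugt8a rises along the gradient in the regimen table, where 4 libraries lie beyond 0.1, while the refed libraries span −0.026 to 0.042.

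The second question was whether the earlier regimens left a trace after 2 months of unrestricted food. In the refed sets the largest values of Cldn11 and Ugt8a relative to control were those of refed IF16. Cldn11 stood at 88.7, 94.9, 97.3, 98.3 and 98.3 CPM in refed AL, at 97.7, 104, 109.7, 109 and 131 CPM in refed IF16 and at 108, 98.3, 105, 104 and 118 CPM in refed EOD. The highest refed AL library and the lowest refed EOD library were nearly equal without overlapping, refed IF16 overlapped refed AL through its replicate 1, and refed IF16 replicate 5 was the highest of the 15. The log2 fold change over refed AL was 0.21 for refed IF16 (SE 0.0627, 95% interval 0.08 to 0.34; edgeR adjusted p = 0.293). It was 0.16 for refed EOD (SE 0.0627, 95% interval 0.03 to 0.29; edgeR adjusted p = 0.487).

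Ugt8a, the galactolipid enzyme, had a similar order. It stood at 36.6, 39.3, 37.4, 41.0 and 36.9 CPM in refed AL, at 41.6, 40.6, 45.6, 40.6 and 53.6 CPM in refed IF16 and at 40.9, 41.7, 40.2, 43.0 and 43.6 CPM in refed EOD. Refed IF16 replicate 5 was again the highest of the 15, and refed AL overlapped both other groups through its replicate 4. For refed IF16 over refed AL the log2 fold change was 0.21 (SE 0.0644, 95% interval 0.08 to 0.35; edgeR adjusted p = 0.287), and for refed EOD over refed AL it was 0.13. With the length gradient as a covariate the refed IF16 over refed AL values were 0.10 for Cldn11 and 0.08 for Ugt8a.

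Opalin stood apart most in refed EOD. It stood at 7.45, 9.40, 8.06, 7.94 and 7.56 CPM in refed AL, at 11.4, 8.88, 8.66, 8.24 and 7.93 CPM in refed IF16 and at 11.0, 11.5, 10.1, 8.57 and 9.28 CPM in refed EOD. Refed EOD lay above refed AL except that refed AL replicate 2 exceeded 2 refed EOD libraries. Its refed EOD over refed AL log2 fold change was 0.32 (SE 0.103, 95% interval 0.10 to 0.54; edgeR adjusted p = 0.378). Mag, whose EOD libraries all lay below AL at the end of the regimen, stood at 167, 172, 176, 190.1 and 184 CPM in refed AL, at 168, 163, 172, 172 and 205 CPM in refed IF16 and at 174, 162, 180.4, 163 and 189 CPM in refed EOD. The refed groups overlapped, and the log2 fold change of Mag was −0.03 for refed EOD over refed AL and −0.01 for refed IF16 over refed AL.

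Mbp stood at 2512, 2614, 2611, 2791 and 2765 CPM in refed AL, at 2528, 2701, 2890.2, 2748 and 3499 CPM in refed IF16 and at 2804, 2735, 2999, 2914 and 3400.3 CPM in refed EOD. Only refed AL replicates 4 and 5 reached into the refed EOD range. The log2 fold change of Mbp was 0.16 for refed EOD over refed AL (edgeR adjusted p = 0.541) and 0.11 for refed IF16 over refed AL.

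Over the set in refed IF16 over refed AL, edgeR called 0 of 9, against 0.17% of the 16444 genes tested, and DESeq2 called 0. At an unadjusted p below 0.05 there were 2, Cldn11 and Ugt8a, against 9.58% of all genes. In refed EOD over refed AL edgeR called 0 of 9, against 0.0426% of all genes, and DESeq2 called 0. At an unadjusted p below 0.05 there were 3, Mbp, Cldn11 and Opalin, against 8.5% of all genes, and Cldn11 was the 1 gene whose libraries did not overlap, against 1.87% of all genes. The medians of the 9 log2 fold changes were 0.11 for refed IF16 and 0.14 for refed EOD, against −0.00 and 0.00 over all genes. Both comparisons share the refed AL libraries. Markers of some other cells lay on the same side. Purkinje cell and microglia markers were each 7 of 8 above 0 for refed IF16 and 8 of 8 for refed EOD. Choroid plexus markers were 0 of 11 above 0 for refed IF16 and 11 of 11 for refed EOD. Granule cell markers were 6 of 8 and 3 of 8 above 0, and endothelial markers 3 of 8 and 6 of 8. Astrocyte markers were 8 of 8 above 0 in both comparisons, with medians of 0.09 and 0.08. EdgeR called 2 of them higher in refed IF16, the gap junction gene Gja1 at 0.31 (adjusted p = 0.0116) and the water channel gene Aqp4 at 0.23 (0.0374), and 1 in refed EOD, Gja1 at 0.27 (0.0427). Their summed level was 656 to 734 FPKM in refed AL, 729 to 768 FPKM in refed IF16 and 731 to 771 FPKM in refed EOD, and their part in the myelin values was not tested. The astrocyte calls depended on the fit. In both comparisons edgeR called 0 genes with the length gradient as a covariate, and 0 in the fit over all 30 libraries. With 1 library left out, genes called ran from 0 to 65 for refed IF16 and from 0 to 16 for refed EOD. In refed EOD over refed IF16 the log2 fold changes ran from −0.08 for Ugt8a to 0.16 for Opalin, and edgeR called 0 of 9, against 0.0182% of all genes. None of the 9 had an unadjusted p below 0.05 there, against 9.75% of all genes, and DESeq2 called 0.

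Single libraries weighed on these medians. Refed IF16 replicate 5 was the highest of its group for 8 of the 9 genes, against 21.2% of all genes, and refed EOD replicate 5 likewise for 8 of 9, against 20.5%. Refed AL replicate 1 was the lowest of its group for 8 of 9, against 25.8%, and it was the highest of its group for 11 of the 11 choroid plexus markers tested. Without refed IF16 replicate 5 the median for refed IF16 over refed AL was 0.06, with 0.03 for Mbp, 0.03 for Mobp and 0.07 for Mal, while Cldn11 and Ugt8a each stood at 0.14. Without refed EOD replicate 5 the median for refed EOD over refed AL was 0.09, with 0.11 for Mbp, 0.12 for Cldn11 and 0.35 for Opalin. With choroid plexus level as a covariate the medians were 0.10 and 0.15.

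Whether the difference from control changed between the end of a regimen and the refed state was tested as an interaction over the 30 libraries. For EOD it was largest for Opalin, with 0.99 on the log2 scale (SE 0.267, 95% interval 0.44 to 1.54; edgeR adjusted p = 0.288), from −0.67 at the end of the regimen to 0.32 after refeeding. Mag followed with 0.41 (SE 0.134, 95% interval 0.13 to 0.68; edgeR adjusted p = 0.386). Cldn11 had −0.06, its value over control being of similar size at both times. EdgeR called 0 of the 9 in the EOD interaction, against 0.0119% of the 16877 genes tested, and DESeq2 called 0. At an unadjusted p below 0.05 there were 4, Opalin, Mag, Cnp and Ugt8a, against 10.3% of all genes. With the length gradient as a covariate the Opalin value was 0.63 and the Mag value 0.24, and without the 4 libraries beyond 0.1 they were 0.59 and 0.23. For IF16 edgeR called 0 of 9, against 0.0474% of all genes, and DESeq2 called 0. There 1 gene, Mbp at 0.23 (edgeR adjusted p = 0.691), had an unadjusted p below 0.05, against 7.21% of all genes.

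The groups that were never fasted, AL and refed AL, differ in age, in the collection set and in the deposited table, and these cannot be told apart. Here 5 of the 9 myelin genes were lower in refed AL, Cldn11, Mobp, Mal, Mog and Mag, with 12.4% of all genes called lower and 23.9% called in either direction. The CPM values of this comparison are scaled over all 30 libraries. Mobp stood at 699, 631, 688, 882 and 829.7 CPM in AL and at 575, 578, 596, 589 and 627 CPM in refed AL. Cldn11 stood at 114, 113, 104, 128 and 122 CPM in AL and at 88.8, 94.9, 97.1, 97.8 and 97.9 CPM in refed AL. In both genes all refed AL libraries lay below all AL libraries, and AL replicates 4 and 5 were the highest of AL. The refed AL over AL log2 fold change was −0.33 for Mobp (SE 0.0856; edgeR adjusted p = 0.011), or 0.795-fold, and −0.28 for Cldn11 (SE 0.0676; edgeR adjusted p = 0.0081).

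Mal stood at 134, 112, 116, 126 and 131 CPM in AL and at 91.6, 99.6, 99.96, 106 and 109 CPM in refed AL, again without overlap, with a log2 fold change of −0.29 (SE 0.0785; edgeR adjusted p = 0.013). The surface proteins overlapped between the groups. Mog stood at 43.9, 37.4, 41.7, 60.4 and 51.9 CPM in AL and at 34.6, 38.2, 36.7, 42.6 and 37.2 CPM in refed AL, with −0.31 (SE 0.0917; edgeR adjusted p = 0.0182). Mag had a log2 fold change of −0.28 (SE 0.0949; edgeR adjusted p = 0.0322), its AL mean being raised by replicate 4 at 281 CPM on this scale. Mbp at −0.20 (edgeR adjusted p = 0.0562), Cnp at −0.18 (0.0518), Opalin at −0.44 (0.0811) and Ugt8a at −0.04 (0.787) did not pass. All 9 values were below 0, while 48.2% of all genes were above 0. Of the 9, 8 had an unadjusted p below 0.05, against 40% of all genes in either direction and 20.9% in the lower. The groups did not overlap for Mbp, Mobp, Cldn11 and Mal, against 9.72% of all genes in either direction and 4.75% in the lower. The median was −0.28 for the 9 genes and −0.01 for all genes.

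The number of calls depended on AL replicates 4 and 5, in the set and over all genes, where 4030 were called with all libraries. With the length gradient as a covariate 1 of the 9 was called, and 223 over all genes. The 1 was Mal at −0.35 (edgeR adjusted p = 0.0403), while Cldn11 stood at −0.29 (0.0509), Mobp at −0.21, Mog at −0.11, Mag at −0.07 and Opalin at 0.05. Without AL replicates 4 and 5 edgeR called 0 of 9, and 57 over all genes, with Mal at −0.25, Cldn11 at −0.20, Mobp at −0.17, Mog at −0.11 and Mag at −0.08. Over the alternatives other than leaving out 1 library, the adjusted p ran from 0.00634 to 0.224 for Mal and from 0.00222 to 0.222 for Cldn11. Leaving out AL replicate 4 alone, or AL replicate 5 alone, left 2 calls, with 830 over all genes without replicate 4. Over the 10 fits that each left out 1 AL or refed AL library, Cldn11 was called in 10. Mal and Mobp were each called in 9 of these fits, Mog in 8 and Mag in 5. The summed level of the brainstem markers was 0.636 to 14.5 FPKM in AL (median 1.67) and 0.665 to 2.51 FPKM in refed AL (median 1.17). Of its 8 tested genes 5 were called lower in refed AL. Among these, Slc6a4 averaged 1.17 ± 2.33 CPM and Chat 0.337 ± 0.607 CPM in AL (SD, n = 5), so the AL libraries differed widely at low levels. AL replicate 4 was the highest AL library for 8 of the 8. Choroid plexus markers summed to 24.3 to 3337 FPKM in AL and 21.9 to 1584 FPKM in refed AL, with 0 of 11 called by edgeR and all 11 below 0. With choroid plexus level as a covariate Mobp and Mal each stood at −0.35. Some markers of other cells were called too, with 12.4% of all genes called lower and 23.9% in either direction. EdgeR called 3 of 8 granule cell markers higher, among them Fat2 at 0.31. It called 3 of 8 Purkinje cell markers higher, among them Pcp2 at 0.47, while 2 were lower at an unadjusted p below 0.05. It called 3 of 8 microglia markers lower, among them C1qa at −0.48, with 2 above 0. Of 8 endothelial markers 1 was called lower, Cldn5 at −0.73, but 5 were above 0, 3 of them at an unadjusted p below 0.05 (median 0.13). Of 8 astrocyte markers 1 was called lower, Hopx at −0.30, and 3 were above 0. The endothelial and astrocyte shares called lower lay near the background. The part of these markers and of the brainstem markers in the myelin values was not tested.

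**Figure D4:**
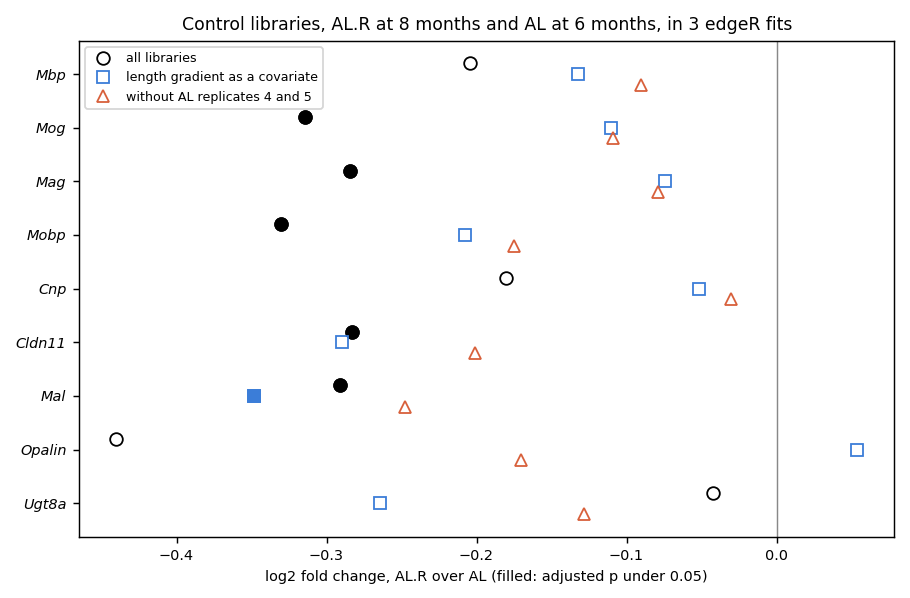
Log2 fold change of refed AL over AL (horizontal axis) for the 9 myelin genes in 3 edgeR fits, all libraries (circles), with the length gradient as a covariate (squares) and without AL replicates 4 and 5 (triangles); filled symbols have an adjusted p below 0.05. Mobp moves from −0.33 to −0.21 and −0.17 and Mag from −0.28 to −0.07 and −0.08, while Mal stays between −0.35 and −0.25.

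The 9 genes did not vary as 1 block. Correlations were taken on log2 CPM after removal of group means, over 15 libraries in each table, and are descriptions of libraries that also differ in depth and length gradient. Among the 36 pairs the median r was 0.50 at the end of the regimens and 0.76 in the refed libraries, with 26 and 28 pairs above 0. The closest pair was Mag with Cnp in the first table, at 0.91, and Mbp with Mal in the second, at 0.98. The most opposed pair was Mag with Ugt8a in the first, at −0.64, and Mobp with Opalin in the second, at −0.63.

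Mog, Cnp, Mag and Mobp followed the mean of the other 8 genes in both tables, with r of 0.94 and 0.82 for Mog, 0.86 and 0.89 for Cnp, 0.80 and 0.91 for Mag, and 0.83 and 0.77 for Mobp. Mbp stood at 0.67 and 0.93, and Cldn11 at 0.50 and 0.90. The other 3 behaved differently between the tables. Mal went from 0.15 to 0.94 and Ugt8a from −0.49 to 0.79, whereas Opalin went from 0.46 to −0.51. In the refed table the length gradient correlated with the mean of the 9 genes at 0.20, against −0.71 in the regimen table.

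**Figure D5:**
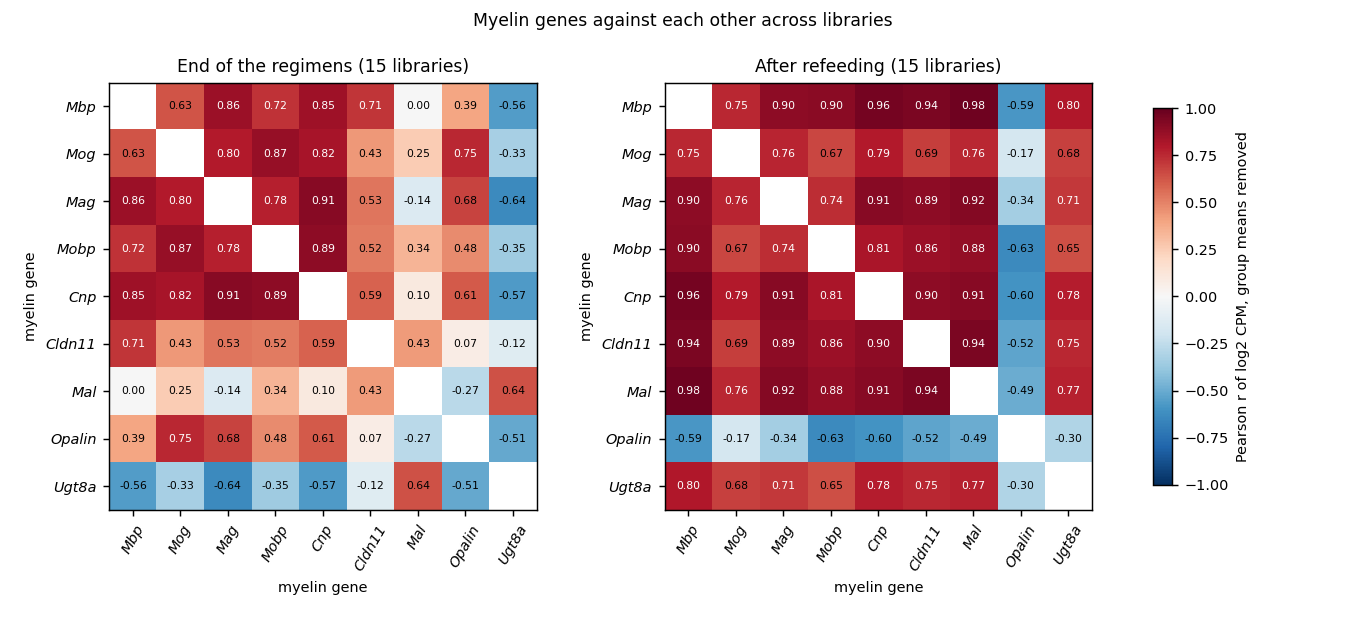
Pearson correlations between the 9 myelin genes (colour and printed value) over 15 libraries per table, on log2 CPM with group means removed, for the regimen table and the refed table. Ugt8a is opposed to most of the set in the regimen table, down to −0.64 with Mag, and Opalin in the refed table, down to −0.63 with Mobp.

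The genes whose pattern was most like the mean of the 9 were ranked by the smaller of the r values from the 2 tables, over 13031 other genes. The leading ones were Qdpr, a dihydropteridine reductase, with 0.88 and 0.89, Fth1, the ferritin heavy chain that is abundant in oligodendrocytes, with 0.87 and 0.86, and Hcn2, a pacemaker channel, with 0.82 and 0.87. Fam19a5, Bcas1, Olfm1, Rhog, Cyhr1, Plekhb1 and Dapk3 completed the 10, with r of 0.76 to 0.87. Of the 10, 3 belong to the lists of oligodendrocyte genes used here.

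Other genes linked to oligodendrocytes or myelin were taken from 5 lists, and not all of them are particular to that lineage. In the 6 comparisons within a table and in both interactions, edgeR called 0 genes of the 5 lists. The lists were counted in the main fits only, and not with the length gradient as a covariate or with libraries left out. For EOD over AL, 7 of 16 other myelin proteins had an unadjusted p below 0.05 in the lower direction and 1 in the higher, with a median log2 fold change of −0.20. Of 10 lineage transcription factors 6 were lower and 0 higher by that measure, with a median of −0.34. Of 16 other mature oligodendrocyte genes 4 were lower and 0 higher (median −0.09), of 12 lipid enzymes 2 were lower and 1 higher (median 0.02), and of 11 precursor genes 2 were lower and 1 higher (median −0.06). Of all genes 7.4% were lower at that p, and their median was −0.02. In IF16 over AL, which shares the AL libraries, 5 other myelin proteins were lower and 1 higher by that measure, 4 lineage factors lower and 1 higher, 2 mature genes lower and 0 higher, 1 lipid enzyme lower and 0 higher, and 2 precursor genes lower and 1 higher, against 5.57% of all genes lower.

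In refed AL over AL, edgeR called 7 of 16 other myelin proteins lower and 2 higher (median −0.22). Lower ones included the junctional adhesion gene Jam3 at −0.31 and the tetraspanins Cd9 at −0.35 and Cd82 at −0.55, and Cntn2, the axonal contactin of juxtaparanodes, was higher at 0.20. Of 10 lineage factors 6 were called lower and 1 higher, with Olig1 at −0.31, Olig2 at −0.54 and St18 at 0.52. Tcf7l2, called lower at −1.45, averaged 21.1 ± 20.2 CPM (SD, n = 5) in AL, so its libraries differed widely. Of 16 mature genes 3 were lower, Qdpr at −0.31, Car2 at −0.22 and Gsn at −0.33, and Adamts4 was higher at 0.34. Of 12 lipid enzymes 2 were lower, Elovl1 at −0.28 and Gal3st1, the sulfotransferase that makes sulfatide from the product of Ugt8a, at −0.30. Of 11 precursor genes 4 were lower, among them Gpr17 at −0.36 and Bcas1 at −0.37, and 1 was higher. Of all genes 12.4% were called lower and 23.9% in either direction, so the shares of lipid enzymes and mature genes called lower lay near the background. The median over all genes was −0.01. Calls over all genes fell from 4030 to 57 without AL replicates 4 and 5, a fit in which the lists were not counted.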

How the data were processed

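Myelin gene RNA was measured by RNA-seq of cerebellum in 30 libraries, 5 in each of 6 groups assigned from the sample titles. The authors deposited whole-number read counts and FPKM per gene in 2 tables of 15 libraries, one per collection set, with symbol, position and length per the file headers. Reads were aligned with STAR 2.5 to mm10 and counted with HTSeq 0.6.1, per the submitters' processing notes. The annotation release, strand setting, RNA selection and hour of collection are not given in the sources used here. The deposited FPKM equal the counts divided by length and total (largest relative difference 5e-12 at 10 or more counts). Members and lists were chosen with earlier results of these data known.

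Counts were tested with edgeR 4.0.16 (TMM scaling, filterByExpr by group, quasi-likelihood test) under R 4.3.3, with p-values adjusted over all genes tested, 16577 and 16444 within the tables and 16877 over the 30 libraries. A call is an adjusted p below 0.05. The tests were run on simulated counts with known changes. The simulated counts had the same spread setting for all genes and no length gradient or outlying library, so such features were not covered. DESeq2 1.42.0, RLE size factors, no filter, a replicate block, covariates and left-out libraries were the alternatives. The biological coefficient of variation was 14.3% in the regimen table and 8.05% in the refed table. Named were all 9 members, the most abundant gene of each list, up to 4 list genes called in a comparison by smallest p, and the 10 genes most alike; others named were chosen after their values were seen. Of the genes under this rule 1 is not reported here. Of 35275 identifiers 34490 were in the gene name table, and 96.5% of 20031 symbols started within 10 kb of RefSeq. ChIP-seq and input samples (12) were not analysed here.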

Additional observations from a re-analysis of the deposited data

Results flagged for a closer look

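With 5 libraries per group, a library was singled out where its gap to the nearest other took up more than 0.71 of the group's range (Dixon's 95% critical value), which chance gives in about 1 in 20 groups. Of 54 combinations of gene and group, 4 met it. Mag in EOD replicate 4 was 170.5 CPM, above the other 4 EOD libraries at 154.5 to 157 CPM. Mag in refed IF16 replicate 5 was 205 CPM, above the others at 163 to 172 CPM. Mog in refed EOD replicate 5 was 45.2 CPM, above the others at 39.3 to 40.6 CPM. Opalin in refed IF16 replicate 1 was 11.4 CPM, above the others at 7.94 to 8.89 CPM.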

How the results depend on the processing

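Of 1431 log2 fold changes recomputed for the 9 genes in the 8 comparisons other than refed AL over AL, 3 were called and 72 had the other sign. The 3 calls were Mag in EOD over AL with DESeq2 and with all 30 libraries in one fit (1 gene called in each), and Cldn11 in refed IF16 over refed AL with a replicate block. Under RLE scaling and DESeq2 the median of all genes lay within 0.0133 of 0. Opalin had the fewest counts, 141 to 516 per library, and its CPM varied by 26.8% (coefficient of variation) in AL and 9.63% in refed AL. The cause of the changes below was not tested.

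Calls over all genes moved by more than 1.5 times as follows. With DESeq2 they were 94 for IF16 over AL (8 in edgeR), 133 for EOD over AL (11), 1 for EOD over IF16 (0), 105 for refed IF16 over refed AL (28), 87 for refed EOD over refed AL (7), 123 for refed EOD over refed IF16 (3), 29 for the IF16 interaction (8) and 14 for the EOD interaction (2). With all 30 libraries in one fit the first 6 were 135, 188, 1, 0, 0 and 0. With the length gradient as a covariate they were 62 for IF16 over AL, 7 for EOD over AL, 1 for EOD over IF16, 0 for each refed comparison, 36 and 6 for the IF16 and EOD interactions and 223 for refed AL over AL (4030). With choroid plexus level as a covariate they were 3 for IF16 over AL, 18 for EOD over AL, 16 for refed EOD over refed AL and 1194 for refed AL over AL. RLE gave 7 for EOD over AL. With no filter they were 1 for EOD over IF16, 11 for refed EOD over refed AL, 6 for refed EOD over refed IF16 and 4 for the EOD interaction. Without the libraries of gradient beyond 0.1, a choice made after seeing the data, they were 2 for EOD over AL, 13 for the IF16 interaction, 4 for the EOD interaction and 405 for refed AL over AL, and 57 for refed AL over AL without AL replicates 4 and 5 only.

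The replicate numbers were not taken to pair the libraries, since the labels tie them to no shared animal or batch and not every same-numbered pair correlated above 0.1. Such pairs correlated at −0.53 to 0.32 in the regimen table, 3 of 15 above 0.1. In the refed table they correlated at −0.05 to 0.43, 8 of 15 above 0.1, with a median of 0.10 against −0.04 for other pairs, and 7 of 15 libraries correlated best with their own number, against 0 in the regimen table. With the replicate block, genes called were 5 for IF16 over AL, 4 for EOD over AL, 95 for refed IF16 over refed AL, 45 for refed EOD over refed AL, 40 for refed EOD over refed IF16 and 10 for the EOD interaction, 1 of the 9 genes was called in refed IF16 over refed AL (Cldn11 at 0.20, edgeR adjusted p = 0.0426) and 7 in refed AL over AL.

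Of the 9 genes, refed AL over AL called 3 with choroid plexus level as a covariate, 1 with the gradient, 6 with DESeq2, 0 without AL replicates 4 and 5 and 0 without the 4 libraries. Its median was −0.13 under each of the last 2 and with the gradient. Without the 4 libraries the medians of the interactions were 0.022 for IF16 and 0.072 for EOD.

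Signs changed for small values. Without the 4 libraries of gradient beyond 0.1, IF16 over AL gave Cnp 0.036 and Mobp 0.091. EOD over AL gave Cnp 0.023, Mbp 0.028, Mobp 0.10 and Mog 0.18. EOD over IF16 gave Mobp 0.010. The IF16 interaction gave Cldn11 −0.0083 and Mal −0.057. The EOD interaction gave Mal −0.021 and Mog −0.064. With the gradient as a covariate, IF16 over AL gave Mobp 0.028. EOD over AL gave Cnp 0.0024, Mbp 0.038, Mobp 0.069 and Mog 0.12. EOD over IF16 gave Cnp 0.021 and Mobp 0.042. Refed EOD over refed IF16 gave Cldn11 0.051, Mag 0.010, Mal 0.073, Mog −0.013 and Ugt8a 0.044. The EOD interaction gave Mog −6.4e-05. Refed AL over AL gave Opalin 0.054. With choroid plexus level as a covariate, EOD over IF16 gave Mal 0.056. Refed EOD over refed IF16 gave Mal 0.014. The EOD interaction gave Mal −0.013. With the replicate block, the EOD interaction gave Mal −0.0011.

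Leaving out each library in turn, genes called ranged from 3 to 10 for IF16 over AL, 2 to 6 for EOD over AL, 0 to 0 for EOD over IF16, 0 to 65 for refed IF16 over refed AL, 0 to 16 for refed EOD over refed AL, 0 to 71 for refed EOD over refed IF16, 5 to 16 for the IF16 interaction, 0 to 6 for the EOD interaction and 830 to 6173 for refed AL over AL. Members called ranged from 2 (without AL replicate 4 or 5) to 8 (without AL replicate 2) for refed AL over AL and were 0 throughout the others. Values of the 9 genes that crossed 0 ranged as follows. IF16 over AL had Mobp at −0.080 to 0.037 and Ugt8a at −0.13 to 0.068. EOD over AL had Mbp at −0.084 to 0.0071, Mobp at −0.10 to 0.027 and Mog at −0.12 to 0.062. EOD over IF16 had Mal at −0.045 to 0.025 and Mobp at −0.041 to 0.022. Refed IF16 over refed AL had Mag at −0.071 to 0.011. Refed EOD over refed IF16 had Cldn11 at −0.090 to 0.019, Mag at −0.052 to 0.039, Mal at −0.064 to 0.080, Mbp at −0.0042 to 0.13, Mobp at −0.035 to 0.12 and Mog at −0.016 to 0.057. The IF16 interaction had Mal at −0.083 to 0.056. The EOD interaction had Mal at −0.054 to 0.034. Refed AL over AL had Ugt8a at −0.090 to 0.058.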
